A study of Mus musculus with 2 samples.

Results

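The family of miR-130 and miR-301 miRNAs was followed in exosomes shed by cultured mouse pancreatic islets. Its 5 members, mmu-miR-130a-3p, mmu-miR-130b-3p, mmu-miR-130b-5p, mmu-miR-301a-3p and mmu-miR-301b-3p (the prefix mmu, for mouse, is left out from here on), were chosen by name with earlier results of these data known, so their levels and ratios are a description and carry no test. Of these, 3 had a row among the 677 known mouse miRNAs of the deposited table, which holds 2083 entries with the predicted new miRNAs included. miR-301a-3p and miR-301b-3p had no row.

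The series holds 2 small RNA libraries, 1 for each diet. The NCD library came from islets of C57BL/6 mice fed a normal chow diet with 4% fat, and the HFD library from islets of C57BL/6 mice fed a diet with 60% fat. In both, the islets were kept for a week in medium without serum exosomes, and vesicles were spun down from supernatant gathered daily. The number, age and sex of the mice were not stated in the labels. With a single library per diet there is no spread between animals or cultures, so each difference compares these 2 libraries alone, without a replicate check.

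MicroRNAs are short RNAs that lower the output of messenger RNAs, which they find mainly through the seed, bases 2 to 8 from the 5′ end. A hairpin precursor gives a 5p and a 3p strand. The 3p strands of miR-130a, miR-130b, miR-301a and miR-301b share a seed and are usually taken as the family's guides, the strands that act in silencing. In adipocyte precursors miR-130 strands are known to repress the fat regulator Pparg, in endothelial cells miR-130a represses homeobox genes that restrain vessel growth, and in rat beta cells raised miR-130a and miR-130b have been tied to lower cellular ATP.

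The mature sequences are shown because the 3p strands of different genes share a seed, whereas the opposite strands of a hairpin do not. They are given 5′ to 3′ from RefSeq (GRCm38.p6) with the seed in capitals, first the 3p strands that share the seed AGUGCAA.
miR-130a-3p: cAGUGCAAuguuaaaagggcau
miR-130b-3p: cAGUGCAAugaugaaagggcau
miR-301a-3p: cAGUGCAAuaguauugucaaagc
The 5p strands come from the opposite side of the same hairpins, and have other seeds.
miR-130b-5p: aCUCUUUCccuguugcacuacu
miR-130a-5p: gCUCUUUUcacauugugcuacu
miR-301a-5p: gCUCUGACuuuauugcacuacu
miR-301b-5p: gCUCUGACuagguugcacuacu
The relatives miR-148a-3p and miR-19b-3p carry much of the same seed shifted by a base.
miR-148a-3p: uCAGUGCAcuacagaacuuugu
miR-19b-3p: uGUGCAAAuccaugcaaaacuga

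miR-130a-3p and miR-130b-3p are identical at 20 of 22 positions. From miR-130a-3p to miR-130b-3p the differences, counted from the 5′ end, are U11A and A13G, so both lie outside the seed. The strands share their first 10 bases, so a read cut short at its 3′ end keeps a difference if it reaches base 11. A full-length read of either strand would need both changes to match the other exactly. How far reads with an error passed between the 2 names was not tested. Bases 13 to 19 of miR-130b-5p, miR-301a-5p and miR-301b-5p read UUGCACU, the reverse complement of the 3p seed. That stretch was found in 4 of the 338 measured known miRNAs with a RefSeq sequence, or 1.18%, where measured means that a library held 10 counts or more. Within RefSeq, the seed AGUGCAA is also held by miR-130c, miR-721, miR-6341 and miR-6389, and none of these had a row in the table. The seed of miR-130b-5p, CUCUUUC, is shared with miR-7014-3p, which had no row either.

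The hairpins lie at 3 places in the genome. Mir130b is on the minus strand of chromosome 16 (17124061 to 17124142, GRCm38), and Mir301b (17124400 to 17124496) stands 257 bases from it on the same strand. Both fall in an intron of the gene 2610318N02Rik. Mir130a is on the minus strand of chromosome 2 (84741115 to 84741178) with no other gene annotated over it. Mir301, which gives miR-301a, is on the plus strand of chromosome 11 (87113004 to 87113089) in an intron of Ska2, a gene for a protein of the mitotic spindle.

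The libraries held 2417589 counts for NCD and 2020831 for HFD. A single count is worth 0.414 counts per 1000000 (CPM) in NCD and 0.495 CPM in HFD. The islet endocrine markers miR-375-3p, miR-7a-5p, miR-184-3p and miR-204-5p were all measured and together took 8.54% of the NCD counts and 8.78% of the HFD counts. The hepatocyte miRNA miR-122-5p took 32.1% and 24.2%, and the 3 erythroid and platelet markers 5.85% and 5.10%. The endothelial sum was 6396 CPM in NCD and 12750 in HFD, the leukocyte sum 1571 and 2301 CPM, the striated muscle sum 440 and 7668 CPM, the acinar sum 84.4 and 249 CPM, and the stromal sum 3261 and 3630 CPM. All 24 markers had counts in both libraries. The part of these sources in the family's ratios was not tested, and fewer vesicles from a cell type cannot be told apart from less of a miRNA per vesicle.

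The family's reads were almost all miR-130b-5p, the strand opposite the guide. The counts of miR-130b-5p were 1386 in NCD and 640 in HFD, which is 573 CPM (95% exact Poisson interval 544 to 604) and 317 CPM (293 to 342). Its NCD level was the higher of the pair and the intervals did not overlap. It made up 91.5% of the members' counts in NCD (95% exact binomial interval 90.0 to 92.9) and 90.9% in HFD (88.5 to 92.9), so its share of the family was alike in both. Among known miRNAs it ranked 74 in NCD and 105 in HFD by count. These intervals cover counting error only, and PCR copies cannot be told from separate molecules.

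miR-130b-5p was lower in HFD, at a ratio of HFD over NCD of 0.552 (95% exact conditional interval 0.502 to 0.607), which is 1.81-fold lower. Such an interval lay wholly below 1 for 25.3% of the measured known miRNAs. The share whose Poisson intervals did not overlap is not given here. With 1 CPM added to both levels of miR-130b-5p the log2 ratio was -0.85, short of the 2-fold rule of size (a log2 ratio of 1 either way) used to call a miRNA higher or lower. In the authors' deposited table it had a log2 fold change of -1.0 and an FDR of 9.11e-05. Those p-values were matched on all 2083 entries by an exact test in edgeR with an assumed biological coefficient of variation of 0.1, so they rest on an assumed spread.

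miR-130b-3p, the guide strand from the same hairpin, was far rarer and lower in HFD by a like factor. Its counts were 109 in NCD and 46 in HFD, which is 45.1 CPM (37.0 to 54.4) and 22.8 CPM (16.7 to 30.4). The NCD library was again the higher and the intervals did not overlap. The ratio was 0.505 (0.350 to 0.719), or 1.98-fold lower, and the log2 ratio with 1 CPM added was -0.96. In the authors' deposited table the log2 fold change was -1.13 with an FDR of 0.00633.

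miR-130a-3p, the guide from chromosome 2, was at a low and similar level in the libraries. Its counts were 19 in NCD and 18 in HFD, which is 7.86 CPM (4.73 to 12.3) and 8.91 CPM (5.28 to 14.1). The intervals overlapped over most of their length. The ratio was 1.13 with a counting interval from 0.561 to 2.28, which allows either direction. In the authors' deposited table the log2 fold change was 0.03. miR-130a-5p had no row.

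Of the miR-301a and miR-301b strands only miR-301a-5p had a row, with 4 counts in NCD and 7 in HFD. That is 1.65 CPM (0.451 to 4.24) and 3.46 CPM (1.39 to 7.14), under the minimum of 10 counts, and the ratio of 2.09 had a counting interval from 0.532 to 9.75. miR-301a-3p, miR-301b-3p and miR-301b-5p had no row. The table lists entries with at least 1 count in a library and its TPM values sum to 1000000 in each, so these strands had no count as the authors counted. miR-301b-5p and miR-301b-3p are thus without counts although their hairpin neighbours Mir130b on the same strand.

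**Figure D1:**
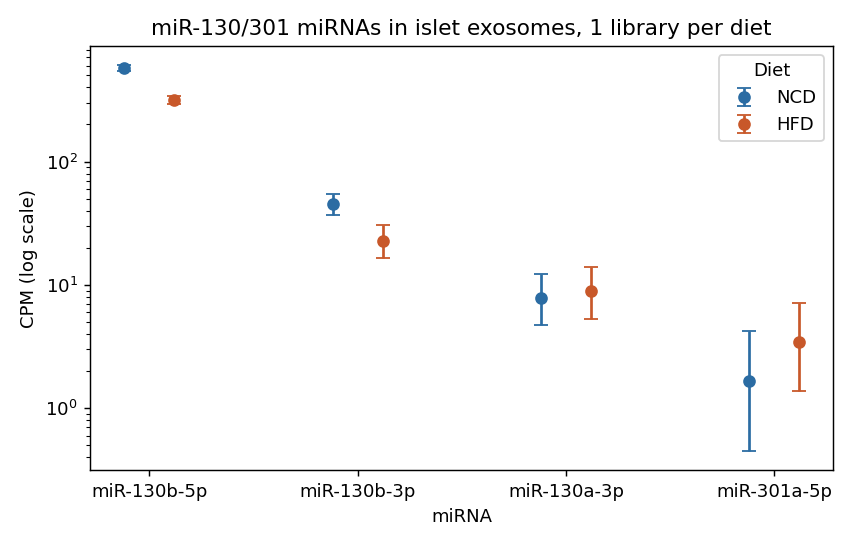
Level in counts per 1000000 (CPM, log axis) of the 4 family strands with a row, in the NCD library (blue) and the HFD library (orange), 1 library each. Points are the level and bars the 95% exact Poisson interval, for counting error only; miR-130b-5p goes from 573 to 317 CPM and miR-130b-3p from 45.1 to 22.8 CPM, while the bars of miR-130a-3p overlap.

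The order of the members was the same in each library, with miR-130b-5p first, then miR-130b-3p, then miR-130a-3p. Neighbours in that order had counting intervals that did not overlap in either library. All 3 strands are 22 bases long, so length does not enter the comparison, but ligation and amplification can favour some small RNA sequences, and what part that has in the order was not tested. The intervals of miR-130a-3p and miR-301a-5p overlapped in HFD.

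The members' ratios stand within a background in which most known miRNAs were higher in HFD. Of the 3 measured members, 0 passed the 2-fold rule. Over 387 measured known miRNAs 34.9% passed it, 9.56% lower in HFD and 25.3% higher. The median log2 ratio of these 387 was 0.33, against -0.85 for the 3 members, which is the value of miR-130b-5p itself. The log2 ratio was below 0 for 2 of the 3 members, both from the miR-130b hairpin, and for 35.9% of the measured known miRNAs. miR-130a-3p, the only measured member from another hairpin, was at 0.16. For both miR-130b strands the counting interval lay wholly below a ratio of 1, as it did for 25.3% of the measured known miRNAs. miR-130b-3p had 38 measured known miRNAs with a lower log2 ratio, or 9.82%. For miR-130b-5p that number was 45, or 11.6%, and for miR-130a-3p 162, or 41.9%. By the FDR of the authors' deposited table, 9.70% of all entries were called lower in HFD at 0.05, miR-130b-5p and miR-130b-3p among them.

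**Figure D2:**
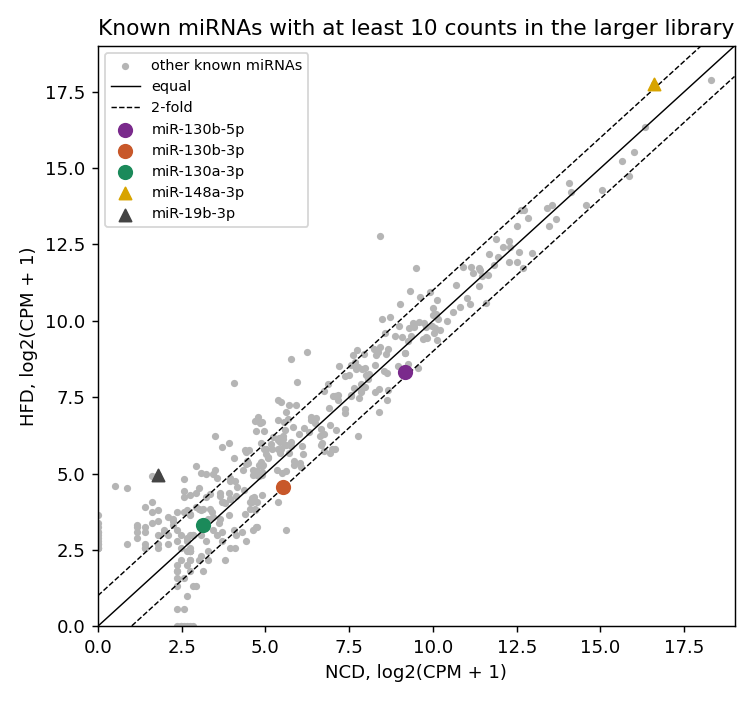
Level in HFD against level in NCD, both as log2(CPM + 1), for the 387 measured known miRNAs; large circles are the 3 measured family members, triangles 2 relatives with a shifted seed, the solid line equal levels and the dashed lines 2-fold. Both miR-130b strands lie close to the lower dashed line and miR-130a-3p lies on the solid line's upper side, with miR-19b-3p far above.

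How the libraries are scaled decides on which side of the 2-fold rule the miR-130b strands fall. With TMM factors the log2 ratio was -1.10 for miR-130b-3p and -1.002 for miR-130b-5p, so both passed, the second only just. With median-of-ratios size factors they were -1.21 and -1.11. With totals that leave out the 5 most abundant miRNAs of either library they were -1.06 and -0.94, so the first passed and the second did not. Relative to the total count, TMM factors shifted the median known miRNA by -0.14 and median-of-ratios factors by -0.25 on the log2 scale. The median-of-ratios factors, taken over all entries, came out as 1 for both libraries. That setting thus compares the raw counts with no correction for the smaller total of HFD. miR-130a-3p ran from -0.12 to 0.18 over the settings run and turned below 0 with median-of-ratios factors and with the GC trend removed.

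**Figure D3:**
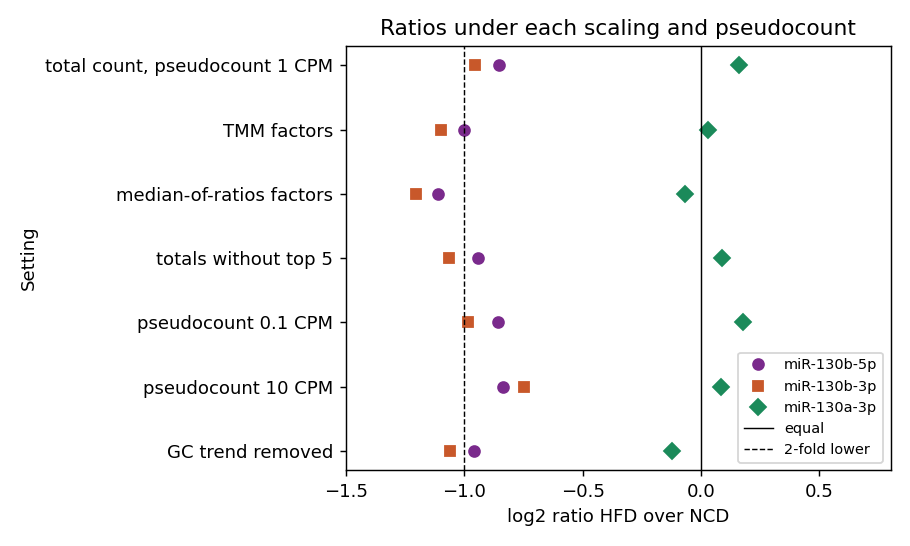
Log2 ratio of HFD over NCD for the 3 measured members (x axis) under 7 settings of scaling, pseudocount and base composition (y axis); the dashed line marks 2-fold lower and the solid line equal levels. The miR-130b strands run from -1.21 to -0.75 and lie on either side of the dashed line, while miR-130a-3p stays between -0.12 and 0.18.

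Ratios taken within a library do not depend on that scaling. miR-130b-3p exceeded miR-130a-3p by 5.74 times in NCD and 2.56 times in HFD. The ratio of these ratios was 0.446, with an exact conditional interval from 0.201 to 0.994 that ends just short of 1. miR-130b-3p gave 109 of the 128 guide strand counts in NCD, or 85.2% (77.8 to 90.8), and 46 of 64 in HFD, or 71.9% (59.2 to 82.4). The intervals of these shares overlap. miR-130b-5p exceeded miR-130a-3p by 72.9 times in NCD and 35.6 times in HFD, a ratio of ratios of 0.487 (0.240 to 0.993). These comparisons rest on 19 and 18 counts of miR-130a-3p. It was taken as the reference because earlier results of these data gave it a ratio near 1. Ratios of ratios below 1 for strands already seen to be lower were thus set by that choice, and they are a description.

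The guide strands that share the seed AGUGCAA summed to 128 counts in NCD against 64 in HFD, which is 52.9 and 31.7 CPM. The ratio of the sums was 0.598 (0.436 to 0.814), with a log2 ratio of -0.72. Leaving out miR-130b-3p turned the log2 ratio of the sum to 0.16, since miR-130a-3p is then the only guide with counts.

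The strands of the miR-130b hairpin kept their proportion within counting error. miR-130b-5p exceeded miR-130b-3p by 12.7 times in NCD and 13.9 times in HFD, and the ratio of these ratios was 1.09 (0.758 to 1.60). For the other hairpins strands were paired by miRNA name, and a name can stand for more than 1 locus. Among 83 hairpins with both strands measured and counted in each library, 5p exceeded 3p in 43 in NCD. Of these, 16 had a higher 5p over 3p ratio in NCD than miR-130b. The median absolute change of that ratio between the libraries was 0.83 on the log2 scale, and miR-130b changed by 0.13. Of the other 82 hairpins, 5 changed by less. A measured strand needs 10 counts in 1 library only, so other changes can rest on few counts, as with 10 and 1 of miR-412-3p. Given this and its own counting interval, the place of miR-130b in that order is uncertain.

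With hairpins included that had a strand at 0 in a library, 89 had both strands measured. Both log2 ratios were below 0 in 16 of these, both above 0 in 33, and the signs differed or a ratio was 0 in 40. For miR-130b both were at or below -0.85, a limit set at the value of its own 5p strand. Of the other 88, 0 had both strands at or below it. The next were miR-412, with -0.70 for 5p and -1.78 for 3p on 10 and 1 counts of the latter, and miR-1306, with -0.66 and -1.03. This order was read after the ratios had been seen and uses the same contrast, so it is a description.

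**Figure D4:**
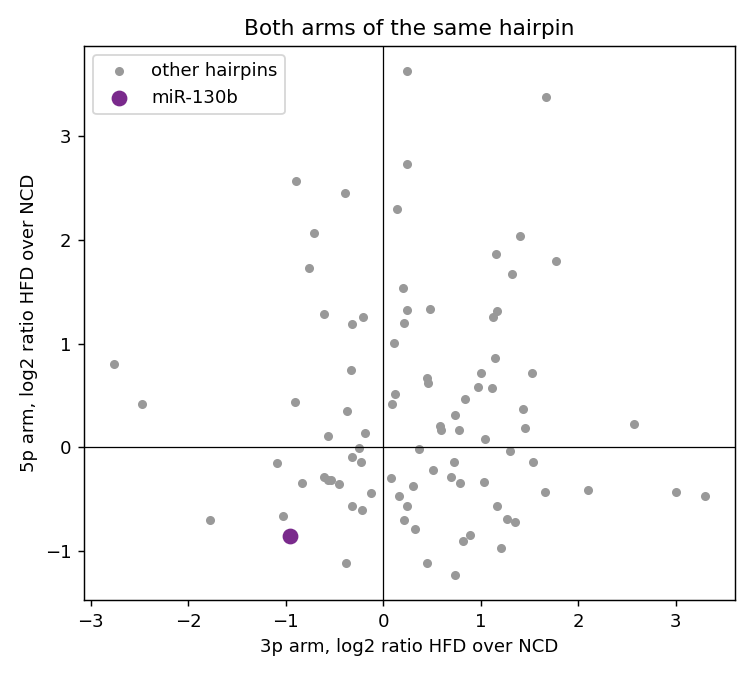
Log2 ratio of HFD over NCD of the 5p strand (y axis) against that of the 3p strand (x axis) for the 89 hairpins with both strands measured; each point is a hairpin and the lines mark equal levels. miR-130b (purple) lies at -0.96 and -0.85 in the corner where both strands are lower in HFD.

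Relatives with a seed shifted by a base had higher ratios than the miR-130b strands. miR-148a-3p, a strand known from acinar cells and hepatocytes, had 99722 CPM in NCD and 220847 in HFD, a ratio of 2.21 (2.20 to 2.23). miR-148b-3p had 609 and 645 CPM with a ratio of 1.06 (0.981 to 1.14), and miR-152-3p had 311 and 379 CPM with a ratio of 1.22 (1.10 to 1.35). miR-19b-3p, a strand of the growth-linked miR-17 to 92 clusters, had 6 and 61 counts and a ratio of 12.2 (5.28 to 34.4). miR-19a-3p had 4 and 11 counts and a ratio of 3.29 with an interval from 0.975 to 14.2. With total-count scaling all 5 relatives had ratios above 1, where the median known miRNA also lay. Under other settings, run on the relatives after their values had been seen, miR-148b-3p turned below 0 on the log2 scale, at -0.07 with TMM factors, -0.18 with median-of-ratios factors, just under 0 with totals without the 5 most abundant miRNAs and -0.20 with the GC trend described last removed. In the authors' deposited table its log2 fold change was -0.07. miR-148a-3p no longer passed the 2-fold rule with median-of-ratios factors, at a log2 ratio of 0.89, with the GC trend removed, at 0.86, and just so with TMM factors. miR-19a-3p came within 2-fold with a pseudocount of 10 CPM, at 0.41, and with the GC trend removed, at 0.76.

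Other miRNAs had like levels in the 2 libraries, measured as the distance in the plane of log2(CPM + 1) in NCD and HFD. Nearest to miR-130b-5p were miR-98-5p, a let-7 relative, at 1198 and 741 counts (distance 0.30), miR-744-5p at 1474 and 781 (0.30) and miR-204-3p at 1800 and 705 (0.40). Nearest to miR-130b-3p were miR-3963 at 107 and 63 counts (0.44), miR-5126 at 97 and 32 (0.52) and miR-671-3p at 117 and 67 (0.53). Nearest to miR-130a-3p were miR-351-5p at 20 and 19 counts (0.10), miR-363-3p at 21 and 21 (0.24) and miR-465c-5p at 18 and 14 (0.33). With 2 libraries the distance compares a pair of levels and no pattern over conditions.

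Base composition moved with the ratios of known miRNAs, and the family's ratios are given with that trend removed. Over 180 known miRNAs that reached 100 counts in a library and have a RefSeq sequence, the log2 ratio had a Pearson correlation of -0.413 with GC content. The points share the same 2 libraries, and the slope was -0.39 for each 10 percentage points of GC. miR-130b-5p and miR-130b-3p both have a GC content of 45.5% and miR-130a-3p one of 40.9%, against a mean of 48.2%. With the trend removed the log2 ratio was -0.96 in place of -0.85 for miR-130b-5p, -1.06 in place of -0.96 for miR-130b-3p, which then passed the 2-fold rule, and -0.12 in place of 0.16 for miR-130a-3p.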

How the data were processed

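Small RNA libraries of islet exosomes, 1 per diet, were prepared with an NEBNext kit, per the labels' protocols. Per the file headers, the deposited table gives, for each mature miRNA, the raw count and TPM of each library and, for HFD over NCD, the log2 fold change with its p-value and FDR. The authors' TPM equalled the count per 1000000 counts of the table. Per the submitters' processing notes the genome build was GRCm38. The sources used here do not give the aligner or the treatment of reads with several matches.

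CPM were recomputed from the counts (Python 3.11.15, SciPy 1.17.1). Ratios without a pseudocount carry exact 95% intervals conditional on the summed counts, and log2 ratios used a pseudocount of 1 CPM. Scaling alternatives used edgeR 4.0.16 and DESeq2 1.42.0 for factors only. The interval code was tested on simulated counts drawn with counting error only, which checks the code and cannot show the spread between cultures. Mature sequences were matched by name to RefSeq for 338 of 387 measured known miRNAs, and hairpins to GENCODE M21. Named miRNAs were the members, their other strands, miRNAs with the same or a shifted seed and the 3 nearest in level; the strand comparison over all hairpins and the motifs were added after the values had been seen. The members and lists were chosen with earlier results of these data known.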

Additional observations from a re-analysis of the deposited data

How the results depend on the processing

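Among the settings run, the miR-130b strands stayed below 0 on the log2 scale, from -1.21 to -0.75 for miR-130b-3p and from -1.11 to -0.84 for miR-130b-5p. The sum of the guide strands ran from -0.98 to -0.60 over scalings, pseudocounts and GC content, and was 0.16 without miR-130b-3p. The 98 known miRNAs past 2-fold higher and 37 lower, of 387, became 53 and 10 with a pseudocount of 10 CPM. They were 170 and 81 of 677 with no count minimum, and 40 and 11 of 207 with a minimum of 100 counts. Both miR-130b strands reached 100 counts in NCD. Where the whole counting interval had to lie beyond 2-fold, 58 were higher and 11 lower. With median-of-ratios factors, which were 1 for both libraries and so left depth uncorrected, 78 were higher and 52 lower. With the sum of the other guide strands as reference, the ratio of ratios of miR-130b-5p was 0.924 in place of 0.487, as miR-130b-3p then makes up most of the reference. No paired analysis was possible because each diet has 1 library. Depth limits miR-130a-3p and miR-301a-5p most.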

Other observations

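The sequence of miR-130b-5p holds CCCU at bases 8 to 11, which is one of the short motifs, with GGAG, reported in miRNAs enriched in exosomes of human T cells. The motifs were looked up on the mature strand after the sequences had been seen. Neither CCCU nor GGAG is in the printed sequences of miR-130a-3p, miR-130b-3p, miR-301a-3p, miR-130a-5p, miR-301a-5p or miR-301b-5p. CCCU was found in 27 of 338 measured known miRNAs, or 7.99%, and in 191 of 1679 mature miRNAs of the RefSeq table, or 11.4%. GGAG was found in 11.5% and 14.2%. The median log2 ratio was -0.28 over measured miRNAs with CCCU and 0.35 over those without, and 16 of the 27 were below 0. Their median GC content was 60.0% against 47.6%, and the part of GC content in that difference was not tested. A match describes the letters only.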
